A study of Mus musculus with 8 samples.

Results

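The genes described here are the enzymes and transporters of glycolysis, the transcription factor subunit Hif1a with its oxygen sensors, and genes known as targets of hypoxia-inducible factor 1 (HIF-1). Members were listed by symbol, and a gene was taken from probe sets annotated to that symbol alone. Of 38 symbols, 36 were measured in this way, among 18194 genes in all; Gpi1 and Eno1 were not analysed here. Where several probe sets met the rule, as for 23 of the 36, the one with the highest mean over the 8 arrays was used.

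Glycolysis splits glucose into pyruvate in a chain of cytosolic enzymes, with hexokinase, phosphofructokinase and pyruvate kinase as its controlled steps, and pyruvate is then either reduced to lactate and exported or burned in mitochondria. HIF-1 is a transcription factor whose alpha subunit is hydroxylated by prolyl hydroxylases and degraded when oxygen is plentiful. In macrophages, toll-like receptor signals are known to raise Hif1a transcripts and HIF-1 protein without hypoxia, and such cells are known to take up more glucose and release more lactate.

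Macrophages were grown from mouse bone marrow for 7 to 10 days in macrophage colony-stimulating factor at 10 ng/mL, and their RNA was read on Affymetrix arrays. There were 4 groups of 2 arrays: Tpl2-deficient macrophages stimulated with Escherichia coli lipopolysaccharide (LPS, a toll-like receptor 4 ligand) at 1 μg/mL (KO-LPS), Tpl2 wild-type macrophages stimulated likewise (WT-LPS), unstimulated Tpl2-deficient macrophages (KO-rest) and unstimulated Tpl2 wild-type macrophages (WT-rest). Tpl2, the product of Map3k8, is a kinase that activates MEK and ERK after such signals. The labels give neither the hours of LPS treatment for these arrays, nor the strain, age or sex of the mice, nor the form of the Tpl2 mutation, and they do not say whether the cultures of a group came from separate mice. The p-values therefore measure only the spread between these samples, and the 2 arrays of a group limit the precision.

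All values are log2 RMA signals, so a difference of 1 is a change of 2-fold; levels of different genes are not compared, because each probe set has its own affinity. Each change is a log2 difference ± standard error (limma, 1 model of the 8 arrays), and a gene passed where its p, adjusted over all 18194 genes by Benjamini and Hochberg's method, was under 0.05. Array medians ran from 6.48 to 6.53. A group mean under these medians was not shown to be above background, and a change from or to such a level is given as at least its estimate. That wording allows for background only. The estimate keeps its standard error, so the true change may also be smaller. This touches Egln3, Vegfa and Ankrd37 in KO-LPS cells; the other 33 genes lay above the medians in every group. The Map3k8 signal was 9.83 and 10.09 in KO-LPS, 11.01 and 10.91 in WT-LPS, 8.32 and 8.23 in KO-rest and 9.27 and 9.28 in WT-rest arrays, so each labelled deficient group lay below its wild-type counterpart.

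The KO-LPS arrays varied most, with a median SD over the 36 genes of 0.129, against 0.063 in WT-LPS, 0.052 in KO-rest and 0.061 in WT-rest arrays. The fit assumes 1 spread for all groups, so standard errors of comparisons with KO-LPS may be too small. All 12 measured macrophage markers lay above the array medians in every group, while 0 of 4 erythroid, 1 of 4 B cell, 1 or 2 of 5 T and NK cell, 2 of 5 dendritic cell and 0 or 1 of 5 mast cell markers did so. The summed signals of the neutrophil and stromal lists moved most between the groups. The macrophage sum was 17.27 to 17.33 in KO-LPS and 17.43 in WT-LPS arrays. At rest it was 17.31 in KO-rest and 17.28 to 17.29 in WT-rest arrays. The summed neutrophil marker signal was 10.06 to 10.25 in KO-LPS, 10.73 to 10.88 in WT-LPS, 9.73 to 9.75 in KO-rest and 9.78 to 9.92 in WT-rest arrays (log2 of the sum over 8 genes, 2 of them above the medians). The summed stromal marker signal was 10.66 to 10.93 in KO-LPS, 10.14 to 10.16 in WT-LPS, 9.02 to 9.94 in KO-rest and 9.50 to 9.54 in WT-rest arrays (6 genes, 4 above the medians with LPS and 3 without). Such sums follow their brightest genes. Between genotypes under LPS, 1 of 8 neutrophil and 1 of 6 stromal markers passed, where 13.7% of all genes did. These were S100a8 (means of 9.03 in KO-LPS and 10.17 in WT-LPS) and Pdgfrb (10.16 and 8.96). The median difference was -0.02 over the neutrophil list and 0.11 over the stromal list. Of the 12 macrophage markers, 1 was higher and 2 were lower in Tpl2-deficient cells under LPS (8.01% and 5.73% of all genes). Mertk was the higher one (means of 11.26 in KO-LPS and 10.26 in WT-LPS), and Msr1 was among the lower ones (12.12 and 13.30). The median difference over the macrophage list was -0.19. The signal of the 3′ minus that of the 5′ Actb probe set, which grows as RNA degrades, was 0.61 and 0.68 in KO-LPS, 0.46 and 0.55 in WT-LPS, 0.87 and 0.90 in KO-rest and 0.81 and 0.67 in WT-rest arrays. The same measure for Gapdh was 0.05 and 0.10 in KO-LPS, -0.09 and -0.07 in WT-LPS, 0.07 and 0.06 in KO-rest and 0.09 and -0.03 in WT-rest arrays. In Tpl2-deficient cells it did not show the gap between LPS and rest seen for Actb. The part of these shifts in the results below was not tested. In such bulk RNA, fewer cells of a type and less of a transcript per cell cannot be told apart.

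The first question is what LPS did to the pathway in each genotype. In both genotypes the transcripts did not move as a block: the regulator Hif1a, the hexokinases Hk1 and Hk2, phosphofructokinase Pfkp and above all Pfkfb3 rose, whereas aldolases, triose phosphate isomerase, phosphoglycerate mutase and pyruvate kinase fell. In Tpl2-deficient macrophages 11 of the 36 genes rose, 19 fell and 6 did not pass (limma), in a comparison where 41.8% of all genes passed, 16.0% upward and 25.8% downward. In wild-type macrophages 13 rose, 16 fell and 7 did not pass, where 52.2% of all genes passed, 21.3% upward and 30.9% downward. Among the 11473 genes above the array median, 61.3% passed in Tpl2-deficient and 70.1% in wild-type cells, against 83.3% and 80.6% of these 36 genes. Over the 36 genes the median change came to -0.30 in Tpl2-deficient cells and -0.13 in wild-type cells, and over all genes to 0.00 and 0.04. At least 2-fold changes were found in Tpl2-deficient cells for 5 genes upward and 5 downward (5.94% and 8.52% of all genes), and in wild-type cells for 7 upward and 4 downward (5.46% and 11.6% of all genes). Of the 36 genes, 10 (27.8%) rose in both genotypes, 16 (44.4%) fell in both and 0 passed in opposite directions, against 11.4%, 23.2% and 0.665% of all genes.

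**Figure D1:**
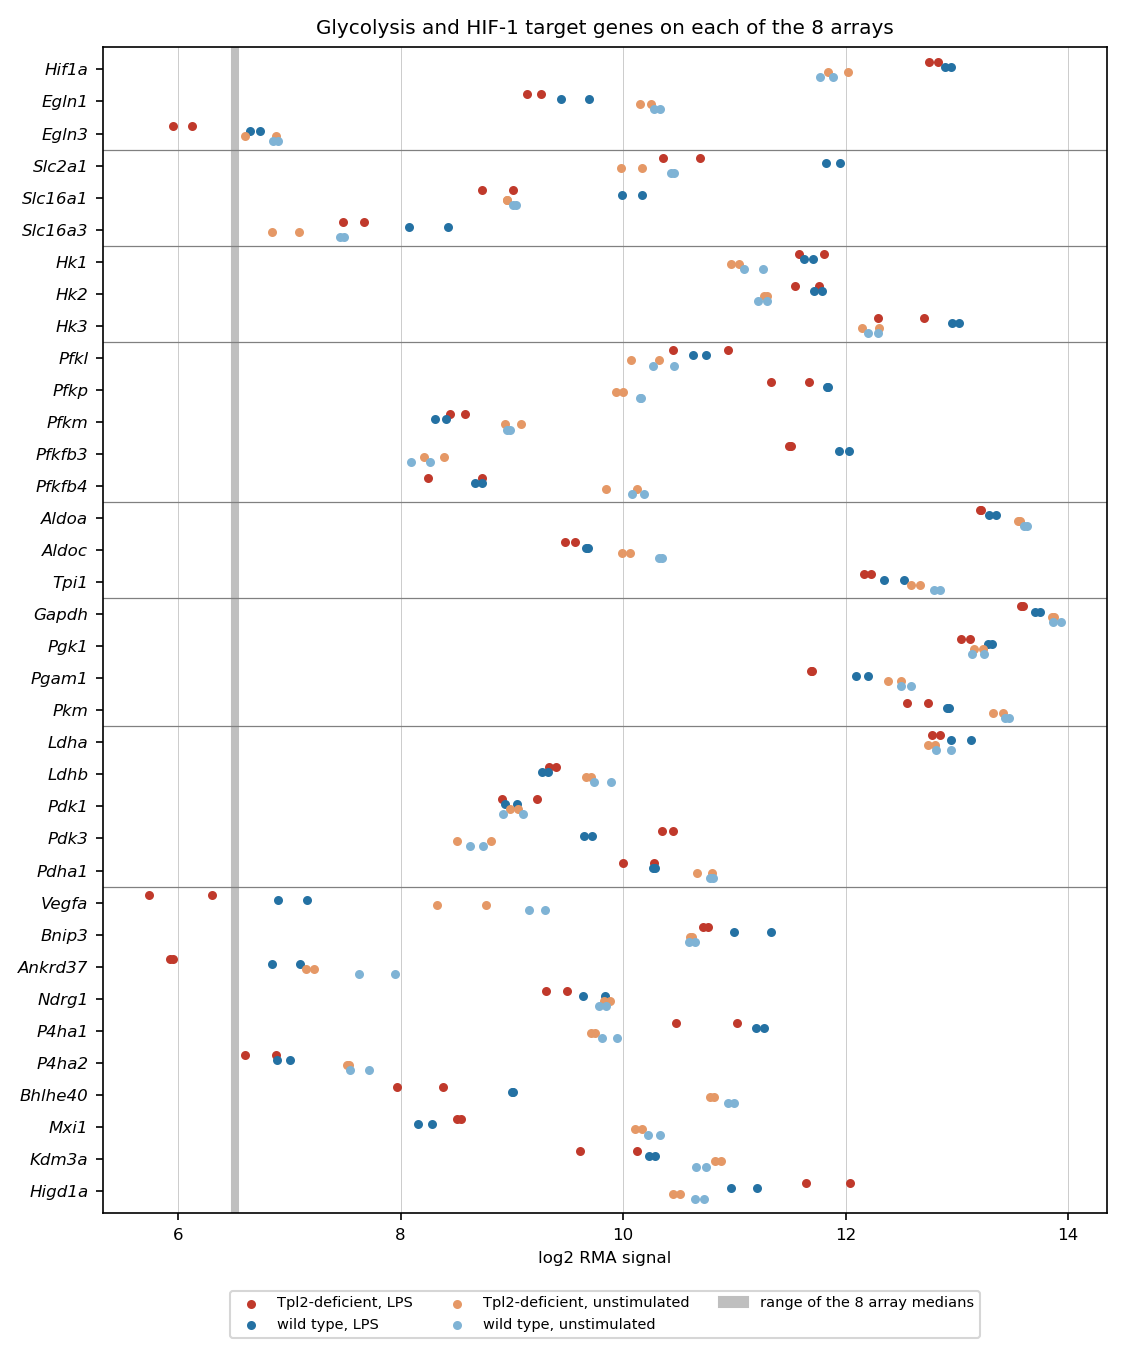
Log2 RMA signal of each of the 36 genes on each of the 8 arrays; every point is 1 array, colours give the group, lines separate the roles, and the grey band spans the array medians of 6.48 to 6.53. Slc2a1 and Slc16a1 in WT-LPS arrays stand to the right of all their other points, and Pfkfb3 lies to the right in both LPS groups.

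Hif1a encodes the oxygen-regulated subunit of HIF-1, and Egln1 and Egln3 the prolyl hydroxylases that mark it for degradation. The Hif1a signal was 12.75 and 12.84 in KO-LPS, 12.89 and 12.95 in WT-LPS, 11.84 and 12.03 in KO-rest and 11.77 and 11.89 in WT-rest arrays. The 4 LPS arrays lay above the 4 unstimulated arrays. Those of the genotypes with LPS did not overlap, KO-LPS being slightly lower, but a lack of overlap alone does not show a difference. LPS raised Hif1a by 0.86 ± 0.11 in Tpl2-deficient cells (adjusted p = 4.34e-05) and by 1.09 ± 0.11 in wild-type cells (adjusted p = 5.04e-06). The genotype difference under LPS was -0.13 ± 0.11, with a 95% interval of -0.36 to 0.10, and did not pass (adjusted p = 0.541). A second probe set of this gene rose too, by 1.11 in Tpl2-deficient and 1.27 in wild-type cells.

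Egln1, the main oxygen sensor of most cells, had 9.14 and 9.26 in KO-LPS, 9.69 and 9.44 in WT-LPS, 10.25 and 10.15 in KO-rest and 10.33 and 10.28 in WT-rest arrays. Signals were lowest in KO-LPS arrays, next lowest in WT-LPS arrays, and the groups did not overlap. Egln1 fell by 1.00 ± 0.11 in Tpl2-deficient cells (adjusted p = 2.03e-05) and fell by 0.74 ± 0.11 in wild-type cells (adjusted p = 0.000196), and its genotype difference under LPS missed the threshold (-0.37 ± 0.11, adjusted p = 0.0548). Egln3, itself a well-known HIF-1 target, had 6.12 and 5.95 in KO-LPS, 6.74 and 6.64 in WT-LPS, 6.88 and 6.60 in KO-rest and 6.85 and 6.89 in WT-rest arrays. It was low on all arrays and lowest in the KO-LPS pair. Egln3 fell in Tpl2-deficient cells by at least 0.70 (adjusted p = 0.000501), and its change in wild-type cells was -0.18 ± 0.12 (adjusted p = 0.22). Under LPS it was lower in Tpl2-deficient cells by at least 0.65 (adjusted p = 0.00348), and a second probe set lay under the medians in both groups there. With LPS that second set fell by 0.72 in wild-type cells (adjusted p = 0.0023), where the set used did not pass.

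Of the roles, transport had the median genotype difference under LPS farthest from 0, at -1.21. Slc2a1 encodes GLUT1, the glucose transporter that macrophages induce on activation, and Slc16a1 and Slc16a3 encode MCT1 and MCT4, which carry lactate and other monocarboxylates across the plasma membrane. Slc2a1 had 10.36 and 10.69 in KO-LPS, 11.95 and 11.82 in WT-LPS, 9.98 and 10.17 in KO-rest and 10.46 and 10.43 in WT-rest arrays. The WT-LPS arrays stood more than 1 unit above every other array, and the KO-LPS arrays lay on either side of the highest unstimulated wild-type value. Slc2a1 rose by 0.45 ± 0.13 in Tpl2-deficient cells (adjusted p = 0.0139) and by 1.44 ± 0.13 in wild-type cells (adjusted p = 2.27e-06). These responses differed by -0.99 ± 0.18 (Tpl2-deficient minus wild type, adjusted p = 0.00634), and under LPS Slc2a1 was 2.57-fold lower in Tpl2-deficient cells (-1.36 ± 0.13, adjusted p = 3.06e-05). All 3 probe sets of Slc2a1 passed, with differences under LPS of -1.36, -1.42 and -1.38. The rise in Tpl2-deficient cells was lost without KO-LPS replicate 2, without KO-rest replicate 1 and with arrays centred on the hybridisation spike-ins, where it was 0.24.

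Slc16a1 had 8.73 and 9.01 in KO-LPS, 9.99 and 10.17 in WT-LPS, 8.96 and 8.96 in KO-rest and 9.04 and 9.01 in WT-rest arrays. Here the WT-LPS pair stood apart, and the KO-LPS pair overlapped the unstimulated arrays of its own genotype. The change with LPS was -0.09 ± 0.12 in Tpl2-deficient cells (95% interval -0.35 to 0.17, adjusted p = 0.6) against a rise of 1.06 ± 0.12 in wild-type cells (adjusted p = 1.59e-05). The responses differed by -1.14 ± 0.17 (adjusted p = 0.00168), and under LPS the gene was 2.32-fold lower in Tpl2-deficient cells (-1.21 ± 0.12, adjusted p = 4.08e-05). For the responses of Slc2a1 and Slc16a1, the difference between genotypes passed in all 19 alternative settings. A second probe set of Slc16a1 lay under the array medians in all 4 groups. For Slc16a3 the signals were 7.48 and 7.67 in KO-LPS, 8.43 and 8.07 in WT-LPS, 7.08 and 6.84 in KO-rest and 7.49 and 7.46 in WT-rest arrays. Both genotypes rose, by 0.61 ± 0.14 in Tpl2-deficient cells (adjusted p = 0.00341) and by 0.77 ± 0.14 in wild-type cells (adjusted p = 0.000566). Slc16a3 was lower in Tpl2-deficient cells under LPS (-0.68 ± 0.14, adjusted p = 0.00665; not past without WT-LPS replicate 1), and unstimulated arrays already differed by -0.51 ± 0.14 (adjusted p = 0.162). The difference between its responses was -0.16 ± 0.19 and did not pass (adjusted p = 0.677), which does not show that they were equal. Thus 3 of 3 transport genes were lower under LPS, as were 5.73% of all genes and 9.72% of those above the array median. A negative difference of responses passed for 2 of 3, against 2.87% and 5.08%.

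**Figure D2:**
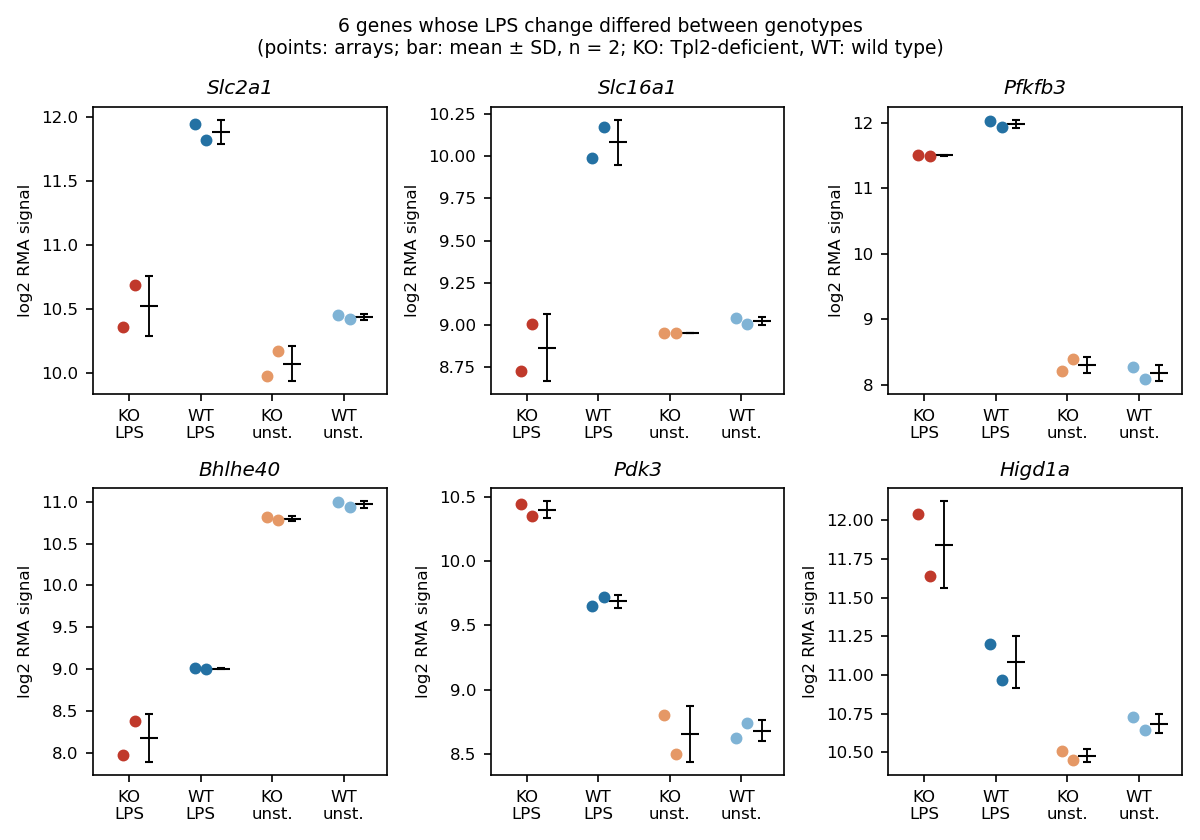
Log2 RMA signal of the 6 genes whose LPS change differed between genotypes, with 1 point per array and the mean ± SD (n = 2) beside each group; each panel has its own vertical scale. Slc2a1, Slc16a1, Pfkfb3 and Bhlhe40 are lower and Pdk3 and Higd1a higher in KO-LPS than in WT-LPS arrays. The pairs do not overlap, as was so for 30 of the 36 genes with LPS and for 21 at rest, where 0 passed. The share of all genes without overlap is not given here, so the lack of overlap alone does not show a difference.

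Hexokinases trap glucose in the cell as glucose 6-phosphate. All 3 of them rose in wild-type cells and 2 of 3 in Tpl2-deficient cells, where 21.3% and 16.0% of all genes rose. Above the array median 23.4% and 21.2% of genes did. Hk1, the housekeeping form, had 11.58 and 11.80 in KO-LPS, 11.63 and 11.71 in WT-LPS, 11.04 and 10.97 in KO-rest and 11.26 and 11.08 in WT-rest arrays. The LPS arrays of both genotypes lay together above the unstimulated ones. Hk1 rose by 0.69 ± 0.11 in Tpl2-deficient cells (adjusted p = 0.000406) and by 0.50 ± 0.11 in wild-type cells (adjusted p = 0.0033, lost with spike-in centring). Hk2, the inducible form, rose by 0.38 ± 0.11 and 0.50 ± 0.11 in Tpl2-deficient and wild-type cells (adjusted p = 0.014 and 0.00212; the first was lost with spike-in centring and without either KO-rest array). Under LPS the genotype differences of Hk1 and Hk2 had 95% intervals of -0.23 to 0.28 and -0.33 to 0.14. Hk3, the form typical of myeloid cells, had 12.29 and 12.71 in KO-LPS, 12.95 and 13.02 in WT-LPS, 12.15 and 12.30 in KO-rest and 12.29 and 12.20 in WT-rest arrays. Its WT-LPS pair stood above the KO-LPS pair, whose arrays were far apart. Hk3 rose by 0.74 ± 0.13 in wild-type cells (adjusted p = 0.000689), its change was 0.28 ± 0.13 in Tpl2-deficient cells (adjusted p = 0.13), and it was lower under LPS in Tpl2-deficient cells (-0.49 ± 0.13, adjusted p = 0.0348). The other probe set of Hk3 rose in both genotypes, by 0.55 in Tpl2-deficient and 0.70 in wild-type cells. The genotype call was lost in 11 of 20 alternative settings, among them without _x_at and _s_at probe sets, where another probe set of the gene is read, and without any 1 of 7 arrays (all but KO-LPS replicate 2).

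Phosphofructokinase commits sugar to glycolysis; Pfkl, Pfkp and Pfkm encode its liver, platelet and muscle forms. The forms moved in opposite directions. Pfkp had 11.33 and 11.68 in KO-LPS, 11.85 and 11.83 in WT-LPS, 10.00 and 9.93 in KO-rest and 10.15 and 10.16 in WT-rest arrays. Every LPS array exceeded every unstimulated array. Pfkp rose by 1.54 ± 0.12 in Tpl2-deficient cells (adjusted p = 9.43e-07) and by 1.68 ± 0.12 in wild-type cells (adjusted p = 3.95e-07), and the genotype difference under LPS was -0.33 ± 0.12 (adjusted p = 0.0994). A second probe set of Pfkp, with a mean signal of 7.97, did pass there, at -0.89 ± 0.11 (adjusted p = 0.000306), and in the difference of responses, at -0.66 ± 0.16 (adjusted p = 0.033), so the probe sets differ on whether the genotypes differ. A dimmer set of Pfkp, with a mean signal of 6.87, gave -0.08 under LPS and 0.18 in the difference of responses and did not pass. Pfkm fell in both genotypes, by 0.50 and 0.62 in Tpl2-deficient and wild-type cells. Pfkl rose by 0.50 ± 0.16 in Tpl2-deficient cells (adjusted p = 0.0253, lost without KO-LPS replicate 2 or KO-rest replicate 2, with spike-in centring and with array weights), and its change in wild-type cells was 0.32 ± 0.16 (adjusted p = 0.11). There 2 other probe sets of Pfkl rose, by 0.48 and 0.81.

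Pfkfb3 and Pfkfb4 encode bifunctional enzymes that make and break fructose 2,6-bisphosphate, the strongest activator of phosphofructokinase; the Pfkfb3 enzyme chiefly makes it. Pfkfb3 had 11.51 and 11.49 in KO-LPS, 12.03 and 11.94 in WT-LPS, 8.21 and 8.39 in KO-rest and 8.27 and 8.09 in WT-rest arrays. Its LPS arrays were all more than 3 units above its unstimulated arrays, the widest gap of the 36 genes, and the WT-LPS pair lay above the KO-LPS pair. The rise was 3.20 ± 0.11 in Tpl2-deficient cells (9.22-fold, adjusted p = 1.3e-09) and 3.80 ± 0.11 in wild-type cells (14.0-fold, adjusted p = 3.5e-10). The responses differed by -0.60 ± 0.15 (adjusted p = 0.0365) and the genotypes under LPS by -0.48 ± 0.11 (adjusted p = 0.0129). The difference of responses was lost when any 1 of the 6 arrays outside the KO-LPS group was left out, with the replicate block, with array weights and with spike-in centring. That under LPS was lost without either WT-LPS array and with array weights. A second, dimmer probe set lay under the array medians at rest; under LPS it passed, at -0.77. Pfkfb4 went the other way and fell by 1.499 ± 0.15 in Tpl2-deficient cells (adjusted p = 9.26e-06) and fell by 1.43 ± 0.15 in wild-type cells (adjusted p = 1.14e-05), with a genotype difference under LPS of -0.21 ± 0.15.

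The measured members of the middle and lower steps of glycolysis fell or did not pass, in both genotypes. Eno1, of the enolase step, was not among them, and Eno2 is described further below. Aldolase splits fructose bisphosphate, and Tpi1 interconverts the resulting triose phosphates. Aldoc, a minor aldolase form outside the brain, had 9.57 and 9.48 in KO-LPS, 9.66 and 9.69 in WT-LPS, 10.06 and 9.99 in KO-rest and 10.35 and 10.32 in WT-rest arrays. Tpi1 had 12.17 and 12.23 in KO-LPS, 12.53 and 12.35 in WT-LPS, 12.67 and 12.59 in KO-rest and 12.85 and 12.79 in WT-rest arrays. In both genes every LPS array lay below every unstimulated array. Aldoa, Aldoc and Tpi1 fell in Tpl2-deficient cells by 0.34, 0.50 and 0.43, and in wild-type cells by 0.29, 0.66 and 0.38 (adjusted p from 0.000135 to 0.0222). The Aldoa call was lost in Tpl2-deficient cells without either KO-rest array and in wild type without any 1 of the 4 wild-type arrays. A second probe set of Aldoa, with changes of -0.22 and -0.04 in Tpl2-deficient and wild-type cells, did not pass, nor did one of Tpi1, with -0.30 and -0.22. The Tpi1 call was lost in Tpl2-deficient cells without KO-rest replicate 1 and in wild type without WT-rest replicate 1 or WT-LPS replicate 2. Genotype differences of the 3 genes under LPS ran from -0.24 to -0.11 and did not pass.

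Gapdh, Pgk1, Pgam1 and Pkm encode enzymes on the way from glyceraldehyde 3-phosphate to pyruvate. Gapdh was read from the array's own control probe sets, because its other probe sets list several symbols. Of the control sets, the 3′ one was used, as its mean was the highest (13.77, against 13.75 and 13.71). Its change was -0.28 ± 0.10 in Tpl2-deficient cells (adjusted p = 0.0351), a fall that was lost in 10 of 21 alternative settings, among them without any 1 of the 6 arrays outside KO-LPS, and -0.18 ± 0.10 in wild-type cells (adjusted p = 0.143). Pgk1 had changes of -0.12 ± 0.10 and 0.11 ± 0.10 in Tpl2-deficient and wild-type cells, neither past the threshold. Pgam1 had 11.69 and 11.70 in KO-LPS, 12.20 and 12.10 in WT-LPS, 12.38 and 12.50 in KO-rest and 12.50 and 12.59 in WT-rest arrays. LPS arrays were lower than unstimulated ones, and the KO-LPS pair was lowest. Pgam1 fell by 0.75 ± 0.10 in Tpl2-deficient cells (adjusted p = 9.04e-05) and fell by 0.40 ± 0.10 in wild-type cells (adjusted p = 0.00667, lost without WT-rest replicate 2 or WT-LPS replicate 2). Under LPS it was lower in Tpl2-deficient cells (-0.46 ± 0.10, adjusted p = 0.0112, lost without WT-LPS replicate 1 and with array weights). Pkm, whose product makes pyruvate, had 12.56 and 12.74 in KO-LPS, 12.93 and 12.91 in WT-LPS, 13.41 and 13.33 in KO-rest and 13.47 and 13.43 in WT-rest arrays. The ranges of the 4 groups did not overlap. Pkm fell by 0.72 ± 0.10 in Tpl2-deficient cells (adjusted p = 0.000135) and fell by 0.53 ± 0.10 in wild-type cells (adjusted p = 0.00116); its splice forms are not named in the annotation, so no isoform is read here.

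The fate of pyruvate is set by lactate dehydrogenase, which makes lactate, and by pyruvate dehydrogenase, which the kinases Pdk1 and Pdk3 switch off. Ldha, the textbook HIF-1 target of this set, had changes of 0.04 ± 0.11 in Tpl2-deficient cells (95% interval -0.19 to 0.28) and 0.16 ± 0.11 in wild-type cells (95% interval -0.08 to 0.40), and neither passed. Ldhb fell by 0.32 and 0.52 in Tpl2-deficient and wild-type cells (adjusted p = 0.0239 and 0.00119; the first was lost in 6 of 21 settings, including without either KO-rest array). Pdk3 had 10.45 and 10.35 in KO-LPS, 9.65 and 9.72 in WT-LPS, 8.81 and 8.50 in KO-rest and 8.63 and 8.74 in WT-rest arrays. All LPS arrays lay above all unstimulated arrays, and in this gene the KO-LPS pair was the highest. Pdk3 rose by 1.74 ± 0.12 in Tpl2-deficient cells (adjusted p = 3.21e-07) and by 1.00 ± 0.12 in wild-type cells (adjusted p = 2.63e-05). It was 1.64-fold higher in Tpl2-deficient cells under LPS (0.71 ± 0.12, adjusted p = 0.00202). The responses differed by 0.74 ± 0.17 (adjusted p = 0.021), a call lost without WT-rest replicate 1 or 2, WT-LPS replicate 1 or 2 or KO-rest replicate 2, and with spike-in centring. Pdk1 had changes of 0.05 ± 0.12 and -0.02 ± 0.12, not past the threshold, although another of its probe sets fell by 0.65 in Tpl2-deficient and 0.98 in wild-type cells. Pdha1, a pyruvate dehydrogenase subunit, had 10.00 and 10.28 in KO-LPS, 10.29 and 10.27 in WT-LPS, 10.80 and 10.66 in KO-rest and 10.81 and 10.79 in WT-rest arrays. LPS arrays were lower in both genotypes, which overlapped with LPS, and the falls were 0.59 ± 0.12 in Tpl2-deficient and 0.52 ± 0.12 in wild-type cells (adjusted p = 0.00138 and 0.00273). A second probe set of Pdha1, with a mean signal of 9.11, gave -0.19 ± 0.11 and 0.00 ± 0.11 in Tpl2-deficient and wild-type cells and did not pass, so the fall is not shown by both.

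**Figure D3:**
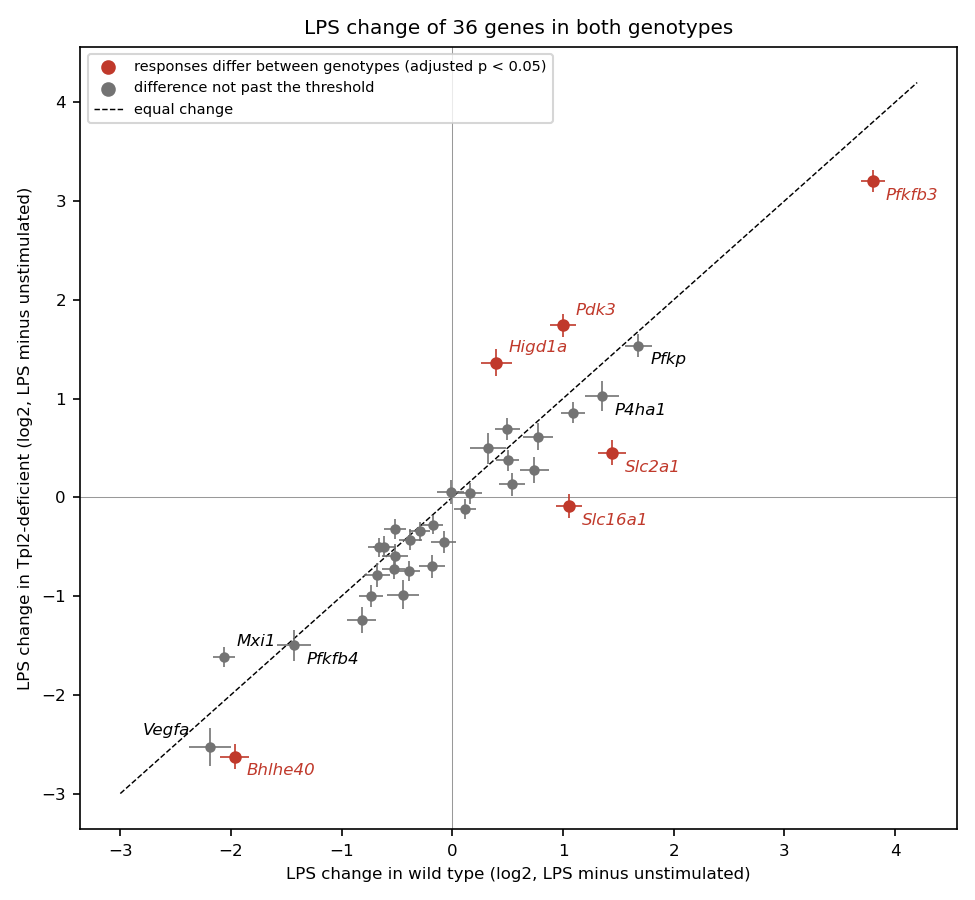
LPS change (log2, LPS minus unstimulated) of each gene in Tpl2-deficient macrophages (vertical) against wild-type macrophages (horizontal), with standard errors as bars and equal change as the dashed line. Most genes lie near the line; Slc2a1 and Slc16a1 fall below it by 0.99 and 1.14, and Pdk3 and Higd1a lie above it by 0.74 and 0.96.

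Of the 10 HIF-1 targets outside glycolysis, 2 rose and 7 fell with LPS in Tpl2-deficient cells, and 3 rose and 6 fell in wild-type cells. Of all genes, 16.0% rose and 25.8% fell in Tpl2-deficient cells, and 21.3% rose and 30.9% fell in wild-type cells. Falls made up 40.1% and 46.8% of the genes above the array median in these genotypes. Vegfa, the angiogenic growth factor, had 5.73 and 6.30 in KO-LPS, 6.90 and 7.16 in WT-LPS, 8.77 and 8.33 in KO-rest and 9.30 and 9.15 in WT-rest arrays. Bhlhe40, a transcriptional repressor, had 7.97 and 8.38 in KO-LPS, 9.007 and 8.997 in WT-LPS, 10.82 and 10.78 in KO-rest and 10.998 and 10.94 in WT-rest arrays. In both genes every LPS array lay below every unstimulated array, with KO-LPS lowest. Vegfa fell by at least 2.53 in Tpl2-deficient cells (adjusted p = 7.64e-07) and fell by 2.19 ± 0.19 in wild-type cells (adjusted p = 2.12e-06). Under LPS it was at least 2.02-fold lower in Tpl2-deficient cells (adjusted p = 0.00458, lost without WT-LPS replicate 2). The difference of its responses is not given, since KO-LPS was under the medians. A dimmer probe set of Vegfa lay under the medians in KO-LPS and KO-rest arrays, and its change in wild-type cells was -0.01 ± 0.12 (adjusted p = 0.97).

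Bhlhe40 fell by 2.63 ± 0.13 in Tpl2-deficient cells (adjusted p = 2e-08) and fell by 1.97 ± 0.13 in wild-type cells (adjusted p = 2e-07). It was 1.77-fold lower in Tpl2-deficient cells under LPS (-0.83 ± 0.13, adjusted p = 0.00122), and the responses differed by -0.66 ± 0.18 (adjusted p = 0.0485). The difference of responses, close to the threshold, was lost in 10 of 19 settings, including the replicate block, spike-in centring and without any 1 of the 6 arrays outside KO-LPS. Ankrd37, an ankyrin repeat gene induced by hypoxia, had 5.95 and 5.93 in KO-LPS, 7.10 and 6.84 in WT-LPS, 7.22 and 7.15 in KO-rest and 7.95 and 7.62 in WT-rest arrays. It was lowest in KO-LPS arrays and lower in unstimulated Tpl2-deficient than wild-type arrays without overlap. Ankrd37 fell by at least 1.24 in Tpl2-deficient cells (adjusted p = 1.09e-05) and fell by 0.82 ± 0.13 in wild-type cells (adjusted p = 0.000255). Its genotype difference under LPS was at least 2.04-fold by the estimate, which has its own standard error (adjusted p = 0.000286). At rest it was -0.60 ± 0.13 and did not pass (adjusted p = 0.0885).

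Higd1a encodes a mitochondrial protein induced by hypoxia, and Bnip3 a mitophagy receptor. Higd1a had 12.04 and 11.64 in KO-LPS, 11.20 and 10.97 in WT-LPS, 10.51 and 10.45 in KO-rest and 10.73 and 10.64 in WT-rest arrays. The KO-LPS pair was highest, and no groups overlapped. Higd1a rose by 1.36 ± 0.14 in Tpl2-deficient cells (adjusted p = 8.31e-06) and by 0.40 ± 0.14 in wild-type cells (adjusted p = 0.0311), where the call was lost without either WT-rest array or WT-LPS replicate 1 and a second probe set fell by 0.70, so its direction in wild type is not settled. In Tpl2-deficient cells that second set gave 0.32 ± 0.12 and did not pass (adjusted p = 0.0612). It was 1.69-fold higher in Tpl2-deficient cells under LPS (adjusted p = 0.00357), and the responses differed by 0.96 ± 0.20 (adjusted p = 0.0116, lost without WT-rest replicate 1, KO-rest replicate 2 or WT-LPS replicate 2); the second probe set gave 0.74 and 1.02, and both passed. Bnip3 had 10.76 and 10.72 in KO-LPS, 11.33 and 10.996 in WT-LPS, 10.62 and 10.60 in KO-rest and 10.65 and 10.60 in WT-rest arrays. Only the WT-LPS pair stood clear of the unstimulated arrays by more than 0.3. It rose by 0.54 ± 0.12 in wild-type cells (adjusted p = 0.00259), its change in Tpl2-deficient cells was 0.13 ± 0.12 (adjusted p = 0.422), and its lower level under LPS in Tpl2-deficient cells (-0.42 ± 0.12, adjusted p = 0.0371) was lost in 11 of 20 settings, among them without any 1 of 7 arrays (all but WT-LPS replicate 2).

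P4ha1 and P4ha2 encode collagen prolyl hydroxylase subunits, and they moved apart: P4ha1 rose by 1.03 ± 0.15 and 1.36 ± 0.15 in Tpl2-deficient and wild-type cells, whereas P4ha2 fell by 0.79 and 0.68. Mxi1, an antagonist of Myc, fell by 1.61 ± 0.10 in Tpl2-deficient and fell by 2.06 ± 0.10 in wild-type cells. Kdm3a, a histone demethylase, fell by 0.99 and 0.45 (the wild-type call was lost without any 1 of the 4 wild-type arrays). Ndrg1, a stress-responsive gene, fell by 0.45 in Tpl2-deficient cells (adjusted p = 0.00614), and its change in wild-type cells was -0.08 ± 0.11 (adjusted p = 0.576). By the probe sets used, these 5 genes did not pass between genotypes under LPS, with differences from -0.48 (P4ha1) to 0.31 (Mxi1). Other probe sets did pass: 1 of P4ha1 gave -1.003 ± 0.19 (adjusted p = 0.00414), and 2 of the 4 others of Ndrg1 gave -0.67 ± 0.11 and -0.57 ± 0.11 (adjusted p = 0.00177 and 0.00576), the first also with a difference of responses of -0.61.

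The second question is how far the genotypes differed. Under LPS 2 of the 36 genes, Pdk3 and Higd1a, were higher in Tpl2-deficient cells and 11 were lower, where 13.7% of all genes passed, 8.01% upward and 5.73% downward. Among the 11473 genes above the array median, fitted alone, 23.4% passed, 13.7% upward and 9.72% downward. In that fit 3 of the 36 genes were higher and 14 lower. By role, 3 of 3 transport genes, 1 of 3 hexokinases, 1 of 5 phosphofructokinase and Pfkfb genes, 0 of 3 aldolase and triose isomerase genes, 1 of 4 genes of lower glycolysis, 0 of 5 genes of lactate and pyruvate fate, 1 of 3 genes of the HIF-1 regulator group and 4 of 10 further HIF-1 targets were lower. Of the 15 enzyme genes from hexokinase to lactate dehydrogenase, 2 were lower and 0 higher, with differences from -0.49 to 0.16 in the probe sets used. The median difference was -0.23 over the 36 genes and 0.02 over all genes, and 28 of 36 values were negative. The count of lower genes depended on single arrays: it was 6 without WT-LPS replicate 1 and 17 without KO-LPS replicate 2 (both limma), and array weights gave 7. Lower genes among all genes moved likewise, to 3.46%, 8.24% and 4.001% in these settings, against 5.73%. Averaging each gene over its probe sets gave 14 lower genes of the 36. In this comparison, 4 of the 36 genes had another probe set above the medians with a different call: Hk3, Ndrg1, P4ha1 and Pfkp. At least 2-fold differences were found for 4 genes, Slc2a1, Slc16a1, Vegfa and Ankrd37, all lower, where 1.04% of all genes were higher and 1.49% lower by that much.

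At rest 0 of the 36 genes passed (limma), where 0.500% of all genes did, 0.154% upward and 0.346% downward. The pairs of 21 of the 36 genes did not overlap there, so a lack of overlap alone does not show a difference. The share of all genes without overlap is not given here. At an unadjusted p under 0.05, 5 of the 36 (13.9%) were lower and 0 higher in unstimulated Tpl2-deficient cells, where 13.4% of all genes had such a p and 8.47% were lower. Array weights gave 3 lower genes past the adjusted threshold, with 2.14% of all genes lower in that setting. The values farthest from 0 were -0.67 ± 0.19 for Vegfa, -0.60 ± 0.13 for Ankrd37, -0.51 ± 0.14 for Slc16a3 and -0.37 ± 0.13 for Slc2a1 (adjusted p = 0.183, 0.0885, 0.162 and 0.256). The median over the 36 genes was -0.10, and it became -0.01 when arrays were centred on the spike-ins. Across all genes, 69.2% of the calls at rest were lower in Tpl2-deficient cells, and 43.2% were with that centring.

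**Figure D4:**
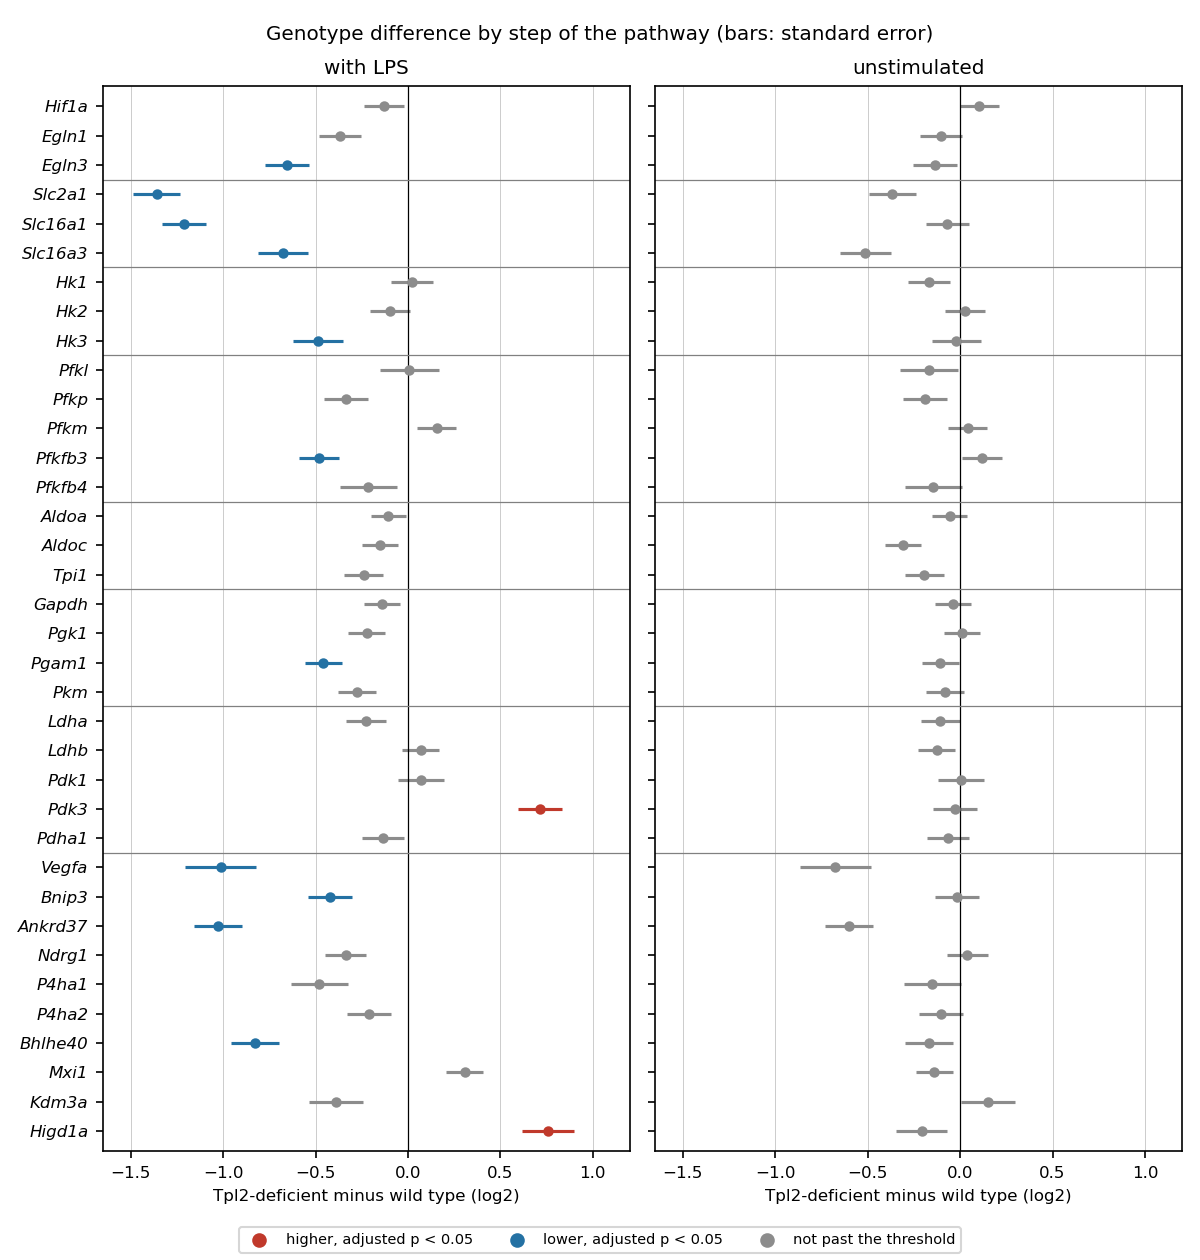
Difference between genotypes (log2, Tpl2-deficient minus wild type) for each gene with LPS (left) and unstimulated (right), by the probe set used and in the order of the pathway; points are estimates and bars standard errors. With LPS the transport genes reach -1.36, while the enzyme genes from Hk1 to Ldhb lie between -0.49 and 0.16; at rest no gene passed.

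The difference of the LPS responses, which is the test of whether the genotypes respond unlike each other, passed for 6 of the 36 genes, 2 positive and 4 negative, where 8.59% of all genes passed, 5.72% upward and 2.87% downward. Among the 11473 genes above the array median, fitted alone, 16.6% passed, 11.5% upward and 5.08% downward. That share is near the 16.7% of the 36 genes. In that fit 3 of the 36 were positive and 4 negative. The 6 were Slc2a1, Slc16a1, Pfkfb3, Bhlhe40, Pdk3 and Higd1a, as described above. The number of negative ones was 2, Slc2a1 and Slc16a1 being those that passed in every setting, without any 1 of the 6 arrays outside KO-LPS, and 7 without KO-LPS replicate 2. The number of positive ones was 0 without WT-rest replicate 1, KO-rest replicate 2 or WT-LPS replicate 2, and 1 without WT-rest replicate 2 or WT-LPS replicate 1. In the probe sets used, the difference of responses for Hif1a had a 95% interval of -0.57 to 0.10, for Hk2 of -0.46 to 0.21, and for Ldha of -0.45 to 0.21, all including 0.

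Promoters are shown for 3 genes with lower responses in Tpl2-deficient cells and for Ankrd37, since HIF-1 is known to bind the core ACGTG or GCGTG. The 250 bases before each RefSeq start (GRCm38.p6) were searched for these letters on both strands; a CACGTG, which is also the E-box read by other factors such as Myc, counts on both. RefSeq windows were used for 36 of the 38 listed symbols, all but Ndrg1 and Bhlhe40 (54 windows, several for some genes), and the sequences below run 5′ to 3′ on the gene's strand with the matches in capitals. Slc2a1 is at chr4:119108495-119108744 (+), Slc16a1 at chr3:104638414-104638663 (+), the 2 windows of Pfkfb3 at chr2:11502091-11502340 (-) and chr2:11553930-11554179 (-), and Ankrd37 at chr8:45999851-46000100 (-).
Slc2a1: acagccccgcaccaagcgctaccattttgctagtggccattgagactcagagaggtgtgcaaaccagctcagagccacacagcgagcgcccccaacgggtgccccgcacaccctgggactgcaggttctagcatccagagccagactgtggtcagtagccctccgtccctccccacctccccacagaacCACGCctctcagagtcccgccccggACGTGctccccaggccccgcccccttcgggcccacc
Slc16a1: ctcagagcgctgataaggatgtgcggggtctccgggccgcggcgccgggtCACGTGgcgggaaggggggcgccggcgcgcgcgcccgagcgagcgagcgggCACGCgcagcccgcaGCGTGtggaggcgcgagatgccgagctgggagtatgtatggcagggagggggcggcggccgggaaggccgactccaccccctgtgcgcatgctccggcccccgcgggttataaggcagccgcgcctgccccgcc
Pfkfb3 window at 11502091: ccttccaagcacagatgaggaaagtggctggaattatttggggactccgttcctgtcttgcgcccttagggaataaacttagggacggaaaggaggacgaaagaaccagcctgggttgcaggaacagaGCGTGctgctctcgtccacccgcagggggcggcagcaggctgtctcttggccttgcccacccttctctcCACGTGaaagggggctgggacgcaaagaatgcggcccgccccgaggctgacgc
Pfkfb3 window at 11553930: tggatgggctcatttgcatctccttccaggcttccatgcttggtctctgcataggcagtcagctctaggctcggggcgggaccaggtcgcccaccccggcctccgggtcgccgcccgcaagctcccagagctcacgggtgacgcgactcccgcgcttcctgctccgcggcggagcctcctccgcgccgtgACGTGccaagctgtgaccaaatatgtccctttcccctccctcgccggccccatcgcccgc
Ankrd37: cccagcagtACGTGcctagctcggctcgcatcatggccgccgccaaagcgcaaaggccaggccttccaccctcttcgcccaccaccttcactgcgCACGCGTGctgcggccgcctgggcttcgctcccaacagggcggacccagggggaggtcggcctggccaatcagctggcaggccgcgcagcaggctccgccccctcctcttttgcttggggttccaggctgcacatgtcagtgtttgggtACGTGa
ACGTG was in 48.1% of the windows of listed genes, in 19.5% of the 18110 windows of genes measured on the array and in 16.6% of all 32851 windows. Either core was in 79.6% of the windows of listed genes, 48.9% of those of genes measured and 38.6% of all. The list was made of known HIF-1 targets in part, base composition was not matched, and no binding was measured. ACGTG lay before Slc2a1, Slc16a1 and Pfkfb3, which rose in wild-type cells, and before Ankrd37, which fell. The cores also lay before genes with higher responses in Tpl2-deficient cells. Pdk3 had 1 match to ACGTG and 3 to GCGTG, and Higd1a had 0 and 2. Ldha, with 5 matches to ACGTG in 1 of its windows, did not pass with LPS.

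Other genes of the pathway gave a wider view. Of 98 further genes in 6 lists, LPS raised 16 and lowered 41 in Tpl2-deficient cells and raised 22 and lowered 43 in wild-type cells, while it raised 16.0% and lowered 25.8% of all genes in Tpl2-deficient cells and raised 21.3% and lowered 30.9% in wild-type cells. The raised shares of the 98, 16.3% and 22.4%, are near those of all genes. Between genotypes under LPS, 10 of them had a higher and 13 a lower level in Tpl2-deficient cells (8.01% and 5.73% of all genes), 10 had a positive and 6 a negative difference of responses (5.72% and 2.87% of all genes), and 0 passed at rest. Among 24 remaining glycolysis, glycogen and glucose transport genes, 4 were higher and 0 lower under LPS in Tpl2-deficient cells. Eno2, the neuronal type of enolase, had 9.04 and 9.39 in KO-LPS, 7.40 and 7.72 in WT-LPS, 8.31 and 8.27 in KO-rest and 8.75 and 8.75 in WT-rest arrays. It lay above unstimulated levels in KO-LPS and below them in WT-LPS arrays, and the responses differed by 2.11 ± 0.19 (adjusted p = 7.52e-05). Pgm2l1, a phosphoglucomutase relative, was higher by 1.14 ± 0.18, Bpgm, which makes 2,3-bisphosphoglycerate, by at least 1.13, and the glycogen phosphorylase Pygb by 0.72 ± 0.10.

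Of the other glucose transporters, Slc2a6 rose by 3.90 ± 0.13 in Tpl2-deficient and 3.66 ± 0.13 in wild-type cells, and Slc2a3, which encodes GLUT3, fell by 3.39 and 2.71. Their genotype differences under LPS were 0.41 ± 0.13 (adjusted p = 0.0616) and -0.42 ± 0.15 (adjusted p = 0.0943), and their differences of responses 0.24 ± 0.18 and -0.68 ± 0.21, none past the threshold.

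Among 28 further HIF-1 targets under LPS, Tpl2-deficient cells had 3 at a higher and 7 at a lower level, with 2 positive and 5 negative differences of responses. Of all genes 8.01% were higher and 5.73% lower, and 5.72% and 2.87% had positive and negative differences of responses. Hmox1, which encodes heme oxygenase and is also an NRF2 target, had 8.21 and 8.07 in KO-LPS, 11.33 and 11.19 in WT-LPS, 9.98 and 10.28 in KO-rest and 9.97 and 10.51 in WT-rest arrays, a difference under LPS of -3.12 ± 0.17 (adjusted p = 5.71e-07). It lay above unstimulated levels in WT-LPS arrays and below them in KO-LPS arrays. Wsb1, a ubiquitin ligase subunit, differed by -1.70 ± 0.12, and Errfi1, a receptor feedback inhibitor, by -1.35 ± 0.13, while Cxcr4 was higher by 1.77 ± 0.10. Of 14 HIF pathway regulators only Cited2, which competes with HIF-1 for its coactivator, passed between genotypes under LPS, and it was higher in Tpl2-deficient cells (0.99 ± 0.10, adjusted p = 7.18e-05). Epas1, which encodes HIF-2 alpha, fell by at least 1.52 in Tpl2-deficient cells and by 1.60 in wild-type cells.

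Of 15 regulators of glycolysis, 5 were lower and 0 higher under LPS in Tpl2-deficient cells, where 5.73% of all genes were lower and 8.01% higher. Among the lower ones were Txnip, which restrains glucose uptake (-0.80 ± 0.11, adjusted p = 0.000384), and Myc (-0.76 ± 0.14, adjusted p = 0.00346). Of 7 pentose phosphate genes, 1 rose and 6 fell with LPS in each genotype, Rpe being the one that rose in both (0.95 ± 0.10 and 1.17 ± 0.10 in Tpl2-deficient and wild-type cells). Among all genes, 16.0% rose and 25.8% fell in Tpl2-deficient cells, and 21.3% rose and 30.9% fell in wild-type cells. Above the array median, 40.1% and 46.8% of genes fell in these genotypes. Of 10 pyruvate dehydrogenase and import genes, 1 was higher and 1 lower under LPS in Tpl2-deficient cells, the phosphatases Pdp2 (0.43 ± 0.10) and Pdp1 (-0.87 ± 0.17). These counts are near the shares of all genes, 8.01% higher and 5.73% lower. Of 7 reference genes 0 passed between genotypes (limma): under LPS Actb differed by -0.01 ± 0.10, Hprt by 0.11 ± 0.10 and Tbp by 0.07 ± 0.10, although LPS changed Hprt by -0.46 ± 0.10 in Tpl2-deficient and -0.56 ± 0.10 in wild-type cells.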

How the data were processed

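RNA of 8 cultures was labelled with biotin and hybridised to 1-colour arrays of 45101 probe sets. The values are log2 RMA signals as deposited by the authors, made with GCOS and RMA per the submitters' processing notes; the chip definition file and genome build are not given in the sources used here. RMA summarises and quantile-normalises all arrays together, so a shift shared by most genes is removed. Probe sets annotated to 1 symbol (34958) gave 18194 genes. Linear models of 4 group means were fitted to all genes with limma 3.58.1 in R 4.3.3, with eBayes moderation, Benjamini-Hochberg adjustment and 5 contrasts, after a test on simulated data. Members, roles and lists were chosen with earlier results of these data known. Values of every array are printed for members past the threshold between genotypes or in the difference of responses, and for the 2 members of each role with the largest LPS change; up to 4 genes are named per further list and comparison. Alternatives changed the probe set rule, scaling, filter, variance model, arrays fitted and a replicate block. Promoters came from a RefSeq table.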

Additional observations from a re-analysis of the deposited data

Results flagged for a closer look

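For 6 genes the change with LPS differed between the genotypes by the test of the difference itself (limma, Benjamini-Hochberg adjusted; Tpl2-deficient minus wild-type response, 2 arrays per group). It was -1.14 for Slc16a1 (adjusted p = 0.00168), -0.99 for Slc2a1 (adjusted p = 0.00634), -0.66 for Bhlhe40 (adjusted p = 0.0485) and -0.60 for Pfkfb3 (adjusted p = 0.0365). It was 0.74 for Pdk3 (adjusted p = 0.021) and 0.96 for Higd1a (adjusted p = 0.0116). The 6 are 16.7% of the 36 genes, where 8.59% of all genes passed and 16.6% of those above the array median. Slc2a1 and Slc16a1 passed in all 19 alternative settings, Higd1a was lost in 3, Pdk3 in 6, Pfkfb3 in 9 and Bhlhe40 in 10 of them.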

How the results depend on the processing

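Of the members called, 23 of 30 kept their call in every setting for LPS in Tpl2-deficient cells, 23 of 29 for LPS in wild-type cells, 7 of 13 between genotypes under LPS and 2 of 6 in the difference of responses. Array weights gave 3 lower members at rest, against 0 as reported, and 7 lower under LPS, against 11 as reported and 9 to 14 in the other settings that keep all 8 arrays or the 4 compared. Spike-in centring gave 1 positive and 2 negative differences of responses, against 2 and 4 as reported. The replicate block gave 2 negative differences, Pfkfb3 and Bhlhe40 being lost. The replicate numbers did not pair the samples: deviations of same-numbered arrays correlated between -0.12 and 0.10, and the block moved no other count of members by over 1.5 times. With the numbers crossed for LPS in Tpl2-deficient cells, chosen after seeing the data, 11 members rose and 16 fell. Leaving out 1 array at a time gave 9 to 12 members higher and 15 to 19 lower with LPS in Tpl2-deficient cells, and 12 to 14 higher and 12 to 16 lower in wild-type cells. It gave 2 to 2 higher and 6 to 17 lower between genotypes under LPS, 0 higher and 0 lower at rest, and 0 to 2 positive and 2 to 7 negative differences of responses. Higd1a with LPS in wild type reversed to -0.17 with the mean of its probe sets (adjusted p = 0.161). Spike-in centring shifted the median LPS change of all genes to -0.20 in Tpl2-deficient and -0.09 in wild-type cells and the genotype difference at rest to 0.10. The share of lower genes among all calls became 78.0% (61.8% otherwise) with LPS in Tpl2-deficient cells, 74.9% (59.2%) in wild-type cells and 47.7% (33.5%) in the difference of responses; repeated quantile normalization gave 55.7% at rest and 43.7% in the difference of responses. The causes were not tested. Egln3, Vegfa and Ankrd37 lay under the array medians in Tpl2-deficient cells with LPS, so their changes are given as at least the estimate, apart from its standard error.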
